A study of Pleurodeles waltl with 10 samples.

Results

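HOX cluster genes are the homeobox genes that lie in 4 chromosomal clusters, named A to D, and carry a paralogue number from 1 to 13. The members described here are the gene names of the newt transcript catalogue that consist of HOX, a cluster letter and a number, with case ignored. They number 37 of the 16771 gene names in the catalogue, and they hold 114 distinct transcripts. The rule uses the spelling of a name and no measured value.

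The catalogue belongs to a single-cell study of the forebrain of larval Pleurodeles waltl, the Iberian ribbed newt. Its 10 libraries came from larvae at stage 55 that had been injected with the PHP-GFP virus, which carries a fluorescent marker, at stage 37 (2 gene expression and 2 multiplexing oligo libraries), stage 41 (1 of each kind) or stage 51 (2 of each kind). All libraries therefore shared the virus, the tissue and the collection stage. Expression values, cells and the comparison of injection stages were not analysed here, so every value below counts names in 1 table, has no replicate and says nothing of the amount of RNA.

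HOX genes encode transcription factors that give cells their position along the body axis. Genes with the same number in different clusters, called paralogues, descend from the same ancestral gene, and the order of the numbers follows the order of the genes on the chromosome. In vertebrate embryos, low numbers are switched on from the hindbrain backwards and high numbers in the posterior trunk, tail and limbs, while the forebrain is formed largely without them. In newts and other salamanders the posterior groups are also studied for their part in limb development and limb regeneration.

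Nearly the full set of HOX genes was listed. The catalogue held 11 names of cluster A, 10 of cluster B, 8 of cluster C and 8 of cluster D. The RefSeq gene table of the species (assembly aPleWal1.hap1) also lists 37 HOX symbols, of which 36 were in the catalogue (97.3%). For all 13717 RefSeq symbols the share found was 90.7%. The sets differed by 1 name in each direction. HOXC13, known in mouse for its part in hair and nail formation, stood in RefSeq only, and no gene name starting with HOX stood outside the 37. HOXD11, known in mouse for its part in forming the forearm, stood in the catalogue only, with 1 TRINITY transcript.

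The 2 sources of transcripts can be read from their names. Names that start with pt_ contain the label HQ and are called HQ transcripts below. The others start with TRINITY_, the prefix of a short-read assembler, except for 3 rows that are constructs. Gene names of these 3 rows are included where all gene names are counted. The tissue or stage behind either source is not given in the sources used here. HQ transcripts made up 82.7% of all rows, but only 50 of the 114 HOX transcripts. The other 64 HOX transcripts (56.1%) were TRINITY transcripts. HOX names thus took 0.0311% of the HQ rows and 0.19% of the TRINITY rows.

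**Figure D1:**
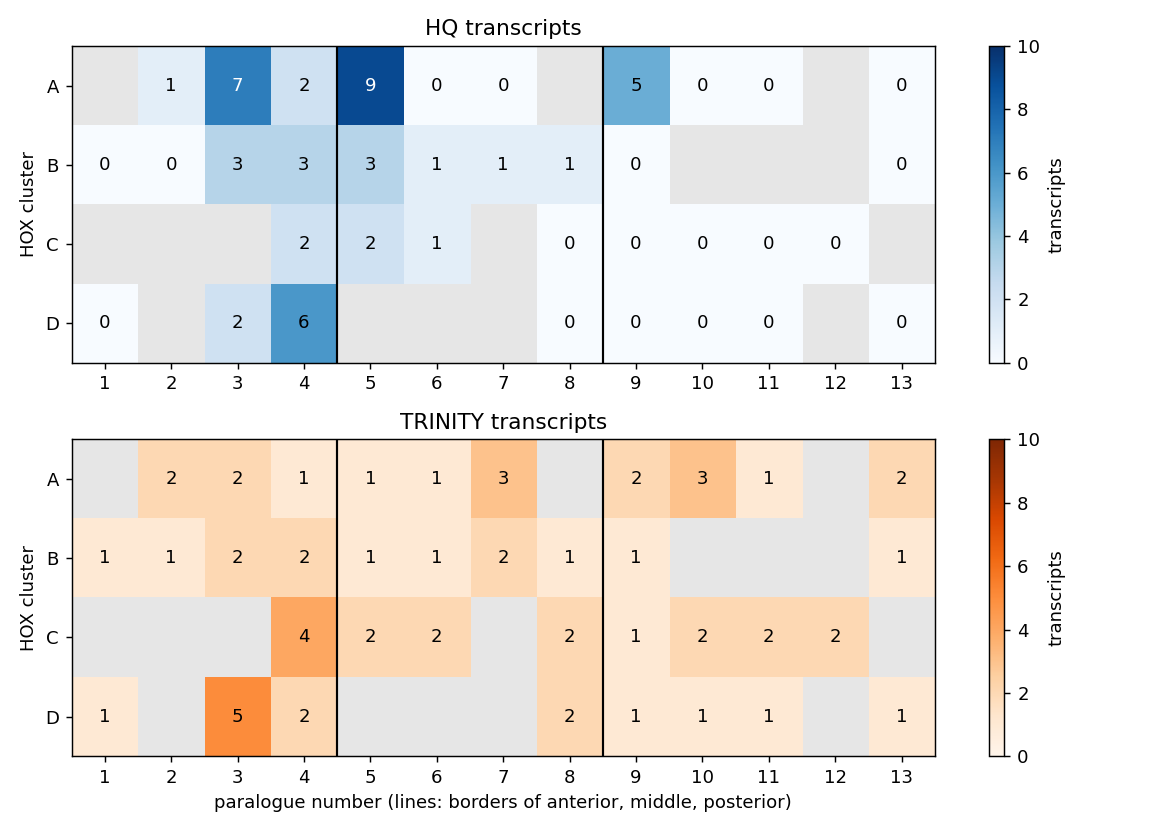
Number of HQ transcripts (upper grid) and TRINITY transcripts (lower grid) of each HOX gene name, with the cluster on the vertical axis and the paralogue number on the horizontal axis; grey cells are combinations without a name in the catalogue or not shown. HQ transcripts gather at numbers 3 to 5 and are 0 beyond number 9, whereas every HOX name has at least 1 TRINITY transcript.

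Transcripts per HOX name ranged from 1 to 10 with a median of 2. The median was 6 over all gene names and 7 over those that match a RefSeq symbol. A single transcript was listed for 12 HOX names (32.4%), against 17.0% of all gene names and 9.83% of those that match a RefSeq symbol. By source, HOX names had 1.35 HQ transcripts on average, against 9.58 over all names, but 1.73 TRINITY transcripts, against 2.01. These sets of numbers were not tested, since gene names are not replicates.

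Every HOX name had a TRINITY transcript, and HQ transcripts were found for 17 of the 37 (45.9%), against 71.9% of all gene names. The remaining 20 HOX names (54.1%) rested on TRINITY transcripts only, against 28.1% of all names and 18.0% of the names that match a RefSeq symbol. No HOX name was spelled in more than 1 way, no HOX transcript was also listed under another gene name, and repeated HOX rows numbered 0.

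HQ transcripts were listed mostly for anterior and middle groups. They were present for 9 of 12 anterior names (numbers 1 to 4), 7 of 11 middle names (numbers 5 to 8) and 1 of 14 posterior names (numbers 9 to 13). The same regions held 27, 18 and 5 HQ transcripts. TRINITY transcripts were spread more evenly, with 25 anterior, 18 middle and 21 posterior. The posterior groups therefore made up 37.8% of the HOX names and 32.8% of the HOX TRINITY transcripts, but 10.0% of the HOX HQ transcripts. TRINITY-only names were 25.0% of the anterior, 36.4% of the middle and 92.9% of the posterior names. The share was 28.1% of all names and 18.0% of the names that match a RefSeq symbol. Posterior names lay furthest from both.

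**Figure D2:**
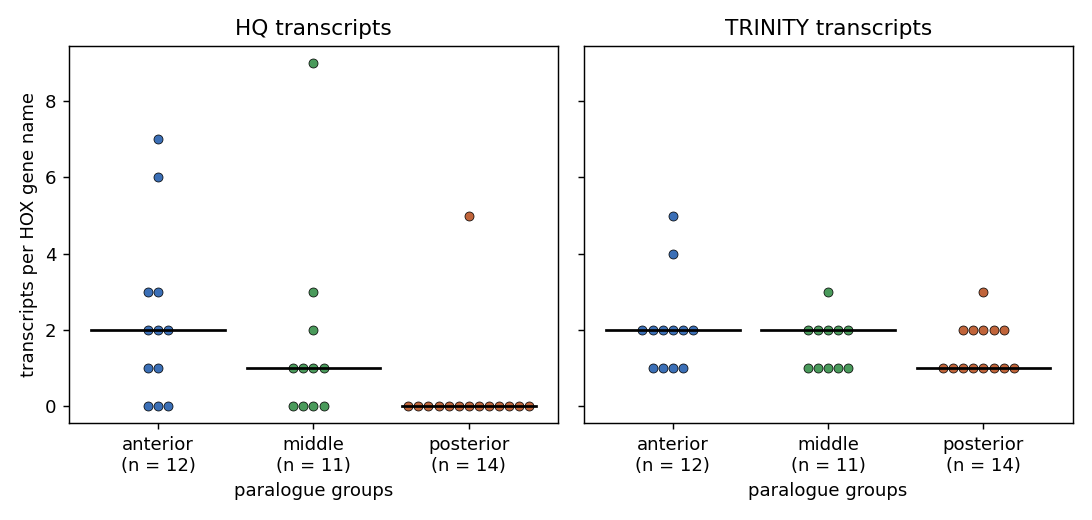
Transcripts per HOX gene name (vertical axis) for anterior, middle and posterior paralogue groups, with HQ transcripts on the left and TRINITY transcripts on the right; each point is a gene name and black lines are medians. The HQ medians are 2, 1 and 0, with HOXA9 as the lone posterior name above 0, and the TRINITY medians are 2, 2 and 1.

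Among the anterior groups, the lowest numbers in mouse pattern the segments of the hindbrain. HOXB1 and HOXD1 had 1 TRINITY transcript each. The second group, which in mouse also sets the identity of the second pharyngeal arch, was listed with 1 HQ and 2 TRINITY transcripts for HOXA2 and 1 TRINITY transcript for HOXB2.

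Groups 3 and 4, which mark the posterior hindbrain and the neck region, carried most of the anterior transcripts. HOXA3, needed in mouse for the thymus and parathyroid, had 7 HQ and 2 TRINITY transcripts. Its paralogue HOXB3 had 3 HQ and 2 TRINITY transcripts, and HOXD3 had 2 HQ and 5 TRINITY transcripts, the highest TRINITY number of any HOX name. In all, group 3 held 21 transcripts under 3 names, and HQ transcripts were found for each of them. Group 4 held 22 under 4 names, again with HQ transcripts for each. There, HOXD4 was led by HQ transcripts (6 HQ and 2 TRINITY), whereas HOXC4 was led by TRINITY transcripts (2 HQ and 4 TRINITY). HOXA4 had 2 HQ and 1 TRINITY transcripts, and HOXB4 had 3 HQ and 2 TRINITY transcripts.

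In the middle groups, HQ transcripts were most numerous at number 5, mainly under HOXA5, and few beyond it. The HQ median of group 5 was 3 per name, against 3 over all gene names and 5 over those that match a RefSeq symbol. HOXA5, known in mouse for its part in lung and neck skeleton formation, had 9 HQ and 1 TRINITY transcripts, the most of any HOX name. HOXB5 had 3 HQ and 1 TRINITY transcripts, and HOXC5 had 2 of each source. Groups 3, 4 and 5 together were the paralogue groups in which all listed members had HQ transcripts.

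Numbers 6 to 8 are used in the trunk, and HOXC6 is known in chick and mouse as a marker of forelimb-level motor neurons. HOXC6 had 1 HQ and 2 TRINITY transcripts, and HOXB6 and HOXB8 had 1 of each source. HOXB7 had 1 HQ and 2 TRINITY transcripts. The remaining middle names rested on TRINITY transcripts only, with 1 for HOXA6, 3 for HOXA7, 2 for HOXC8 and 2 for HOXD8.

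In the posterior groups HOXA9, known in mammals for its part in blood stem cells and leukaemia, stood alone. It had 5 HQ and 2 TRINITY transcripts, and without it the other 13 posterior names held 0 HQ and 19 TRINITY transcripts. Its paralogues HOXB9, HOXC9 and HOXD9 had 1 TRINITY transcript each.

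Group 10, which in mouse represses ribs in the lumbar region, held 3 TRINITY transcripts for HOXA10, 2 for HOXC10 and 1 for HOXD10. Group 11 held 1 for HOXA11, 2 for HOXC11 and 1 for HOXD11, and HOXC12 had 2. Group 13, which in mouse is needed for the hand and foot and for the end of the body axis, held 2 TRINITY transcripts for HOXA13, 1 for HOXB13 and 1 for HOXD13. These names therefore had between 1 and 3 transcripts each, all from the TRINITY source.

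The same pattern can be followed along each cluster. The highest paralogue number with an HQ transcript was 9 in cluster A, 8 in cluster B, 6 in cluster C and 4 in cluster D, although names reached number 13 in clusters A, B and D and number 12 in cluster C. Above those numbers lay 3, 2, 5 and 5 names. The ends in clusters B and C rested on 1 HQ transcript each, of HOXB8 and HOXC6. In cluster A the run was broken, with 0 HQ transcripts for HOXA6 and HOXA7 between HOXA5 and HOXA9. At the other end, HQ transcripts began at number 3 in clusters B and D. In cluster C the lowest listed number was 4, which had them. Cluster A held 39.5% of all HOX transcripts and 25 of the 50 HQ transcripts, with 12 in cluster B, 5 in cluster C and 8 in cluster D.

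The names with the most transcripts were HOXA5 (10 transcripts), HOXA3 (9 transcripts), HOXD4 (8 transcripts), HOXA9 (7 transcripts) and HOXD3 (7 transcripts). Even these were ordinary for the catalogue, in which 35.1% of all gene names had at least as many transcripts as HOXA5.

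The place of HOX genes among their neighbours was read from the RefSeq table, in which the HOX symbols lie on 4 chromosomes. Cluster A is bordered by SKAP2, which encodes an adaptor protein, and by the homeobox gene EVX1, and cluster D by the related EVX2 and by MTX2, a gene of mitochondrial protein import. HOX gene models were often nested, meaning that a protein-coding model lies wholly inside the span of another one. That of HOXA3 spans HOXA4, HOXA5 and HOXA6, that of HOXB3 spans HOXB4, HOXB5 and HOXB6, and that of HOXD3 spans HOXD10, HOXD9, HOXD8 and HOXD4. The model of HOXA9 spans HOXA10. Nesting with another HOX model applied to 15 of the 36 shared names (41.7%), whereas 1.6% of all 13655 protein-coding RefSeq symbols were nested with another symbol.

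The nested names held 41 of the 50 HQ transcripts (82.0%) and 27 TRINITY transcripts. HQ transcripts were found for 10 of the 15 nested names and for 7 of the 21 others, which held 9 HQ and 36 TRINITY transcripts. The 5 names with the most transcripts were all nested. Where models overlap in this way, a transcript could be given the name of either gene. How the transcripts were named is not given in the sources used here, so the split between, for example, HOXA3 and HOXA5 is uncertain. The same holds for HOXA9 and HOXA10. Such overlaps also cross the regions, since the anterior HOXD3 spans the middle HOXD8 and the posterior HOXD9 and HOXD10. The counts by region are thus uncertain in the same way, and the part of this overlap in the counts was not tested.

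A further feature not used by the rule is how TRINITY names are grouped. The DN number in such a name marks a set of contigs that the assembler grouped because they share short sequences, called a component here. The c number that follows it was not used, so contigs with different c numbers can count in 1 component. The 64 HOX TRINITY transcripts came from 35 components. A component with more than 1 gene name held 50 of these 64 transcripts (78.1%), against 27.4% of all TRINITY transcripts. Other families of transcription factors had values of 67.1% (FOX, 73 transcripts), 61.5% (IRX, 13 transcripts) and 28.6% (LHX, 14 transcripts), and 87.5% in the sine oculis homeobox family (16 transcripts), so that a high share was not found in HOX names alone.

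Several HOX names stood in the same component in 12 cases, which involved 24 of the 37 names. Of these components, 2 held 5 HOX names each. The first joined the posterior names HOXA10, HOXA11, HOXC11, HOXD9 and HOXD10, and the second joined HOXA7, HOXA9, HOXB6, HOXB9 and HOXC11. The paralogues HOXB3 and HOXD3 met in 2 separate components, and so did HOXB7 and HOXC4, which differ in number and region.

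**Figure D3:**
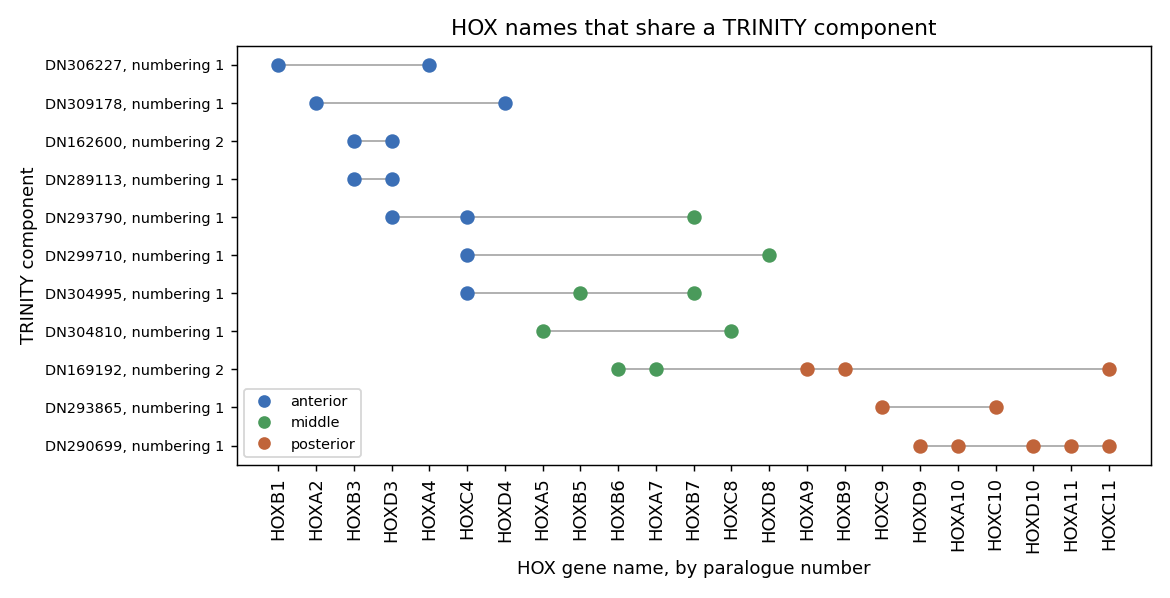
The 11 plotted TRINITY components (vertical axis) that hold 2 or more HOX gene names, with the names on the horizontal axis in order of paralogue number; points are coloured by region and lines join the names of a component. Names that share a component mostly lie near each other in number, as in the component with 5 posterior names.

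The names that shared a component made 32 pairs. They belonged to the same region in 21 pairs (65.6%), against 31.8% of all 666 possible pairs of HOX names. The same number was shared by 4 pairs (12.5%, against 5.71%), and the same cluster letter by 7 pairs (21.9%, against 23.4%). Most of the 32 pairs came from the 2 components with 5 HOX names each. The first of these held posterior names only, so all of its pairs counted as the same region and weighed on that share. Most of the 4 pairs with a shared number also came from the 2 components with 5 HOX names each. Compared with all pairs, a shared region or number was thus more frequent and a shared letter was not, with few pairs behind the shared number. This is a description without a test, since the pairs of a component are not independent. Of the 17 names outside HOX in all components with a HOX name, 10 were other homeobox genes. Among them were DLX1, DLX2, CDX1, CDX4 and GBX1, named after their values were seen. The other 7 were CCDC3, NDUFB3, NEK10, RAC1, RIOK3, STK17B and ZAN. No share of homeobox genes in other components is given here for comparison. HOXD11, the name absent from RefSeq, had its only transcript in a component with NKX2-2 and NKX2-4, and whether its name is right was not examined.

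At the finer level of a TRINITY cluster, whose transcripts agree in name up to the isoform number, 4 of 53 clusters with a HOX name (7.55%) carried more than 1 gene name, against 2.22% of all TRINITY clusters. HOXC9 and HOXC10 shared such a cluster, HOXA9 and HOXB9 another. HOXB5, HOXB7 and HOXC4 shared a cluster as well, and the other one held HOXD3 together with ZAN, a gene of the sperm surface in mammals. Isoforms of a single TRINITY cluster were thus listed under different HOX names, and which of these names is right was not examined, since no sequences were read.

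The rows with TRINITY names ran in 3 stretches, each sorted by name. In the first and second, 1453 DN numbers occurred in both and 75.4% of these had a gene name in common. The third shared 20 numbers with the first and 10 with the second, with a common gene name in 0 cases, so its numbering was treated as separate. The third stretch held 17 HOX transcripts in 5344 rows (0.318%), against 39 in 22685 rows (0.172%) of the first and 8 in 5687 rows (0.141%) of the second. HOXB2, HOXB9, HOXB13 and HOXD11 were listed from the third stretch only, so that 4 HOX names, 3 of them posterior, would be missing without it. HOXB6 also had its TRINITY transcript there, beside 1 HQ transcript.

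The partners of HOX proteins were listed in a different way from HOX names. MEIS, PBX and PKNOX proteins bind DNA together with HOX proteins and are called TALE cofactors. All 9 of them had HQ transcripts, against 71.9% of all gene names and 82.0% of those that match a RefSeq symbol. Their median was 33 transcripts per name, from 4 for PBX2 to 102 for MEIS2. Only 6.39% of their transcripts were TRINITY transcripts, against 56.1% for HOX names and 17.3% over all gene names. These cofactors also act outside HOX territory, and MEIS2 is a known gene of the forebrain. Whether this bears on their counts was not tested.

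Chromatin and retinoid regulators of HOX clusters, such as the Polycomb protein gene SUZ12 and the retinoic acid receptor gene RARA, were listed for 20 of 21 names. CDX2, a homeobox gene that switches on posterior HOX genes in mouse, was the name not found. HQ transcripts were present for 17 of the 20 (85.0%), and the median was 7.5 transcripts. Over all gene names the share was 71.9% and the median 6, and over those that match a RefSeq symbol 82.0% and 7. TRINITY transcripts made up 17.4% for the regulators and 17.3% over all gene names. The regulators thus lay near the catalogue as a whole. SUZ12 had 31 HQ and 1 TRINITY transcripts, and RARA had 1 HQ and 3 TRINITY transcripts. CYP26A1 and CYP26B1, which break down retinoic acid, and CDX4 were the 3 names without HQ transcripts.

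Genes that flank or lie inside HOX clusters in vertebrates were listed for 13 of 15 names, of which 12 had HQ transcripts. TAX1BP1, a gene of general use beyond cluster A, had 81 HQ and 3 TRINITY transcripts. EVX1, next to HOXA13, had 1 HQ and 2 TRINITY transcripts, and EVX2, next to HOXD13, had 1 TRINITY transcript only. Of the other bordering genes on the list, SKAP2 had 10 HQ and 2 TRINITY transcripts. SKAP1 had 3 HQ and 1 TRINITY transcripts, and MTX2 had 2 of each source. TTLL6 and CALCOCO1, which border clusters B and C in RefSeq, were not on the list. EVX1, EVX2, SKAP1, SKAP2 and MTX2 thus had from 1 to 12 transcripts, against 1 to 10 for HOX names. The first range covers only the bordering genes on the list and the second all 37 HOX names, so the ranges are not directly comparable. The whole list had a median of 8 transcripts per name, against 2 for HOX names. The median was 7 over gene names that match a RefSeq symbol. HQ transcripts were found for 92.3% of the listed names, against 45.9% of HOX names and 71.9% of all gene names. Among names that match a RefSeq symbol the share was 82.0%. Names not found were HOTAIRM1, a noncoding RNA gene, and LNPK, although KIAA1715, an older symbol of LNPK looked up after the result was seen, had 16 transcripts.

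Of 10 genes of hindbrain and midbrain patterning, 7 (70.0%, against 28.1% of all gene names) rested on TRINITY transcripts only, among them GBX2, EN1 and EN2, which act at the border between midbrain and hindbrain. EGR2, which in mouse controls HOX genes in hindbrain segments, had 18 HQ transcripts. EGR2 is also known as an activity-regulated gene of neurons, and a link to its count was not tested. Homeobox genes of the forebrain had HQ transcripts for 16 of 23 names (69.6%). The share was 71.9% of all gene names and 82.0% of the names that match a RefSeq symbol. Of the forebrain genes, PAX6 was highest at 47 HQ and 2 TRINITY transcripts. The 10 neuronal genes all had HQ transcripts, with SYT1 highest at 208 HQ and 1 TRINITY transcripts.

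**Figure D4:**
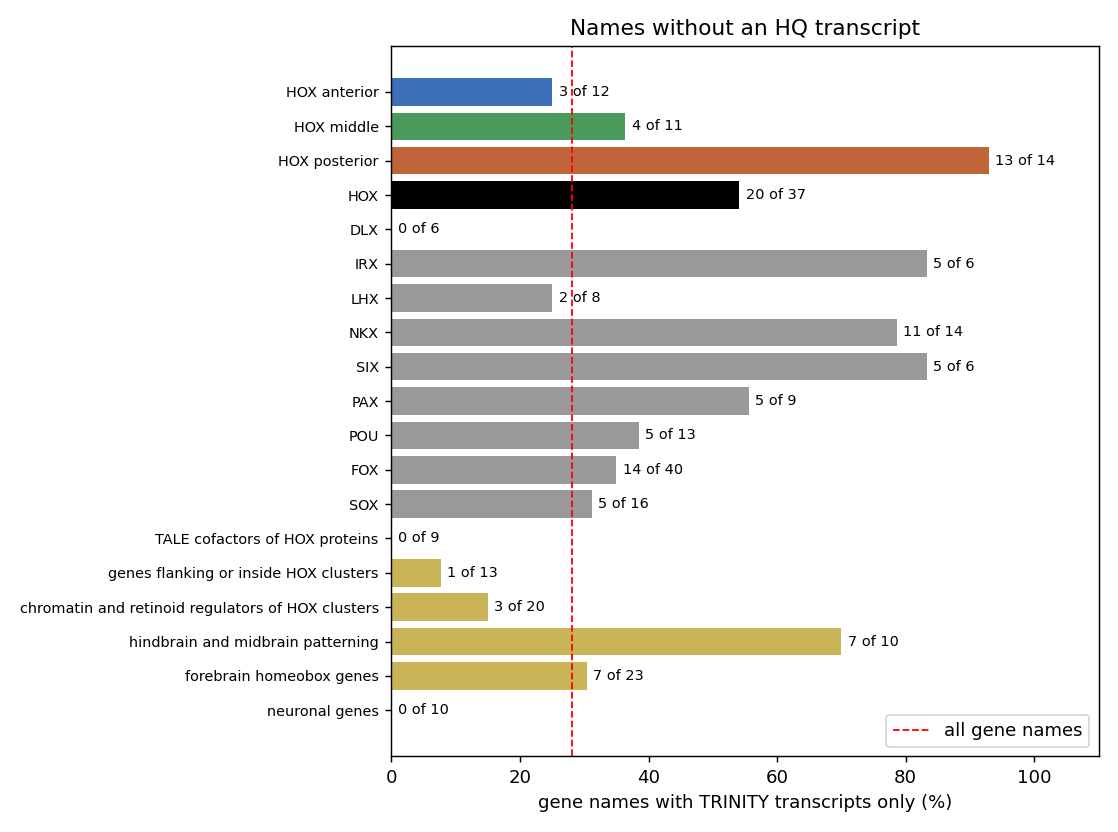
Share of gene names with TRINITY transcripts only (horizontal axis, percent) for HOX regions, the HOX family, other transcription factor families (grey) and the gene lists (yellow), with counts beside the bars; the dashed line is the share of all gene names, 28.1%. Posterior HOX names are at 92.9%, IRX and the sine oculis homeobox family at 83.3%, and the TALE cofactors and neuronal genes at 0.

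Among 9 other families of transcription factors, chosen after the HOX values were seen, the share of names with TRINITY transcripts only ran from 0 of 6 (DLX) to 5 of 6 (IRX, and likewise the sine oculis homeobox family). It was 11 of 14 for NKX, 5 of 9 for PAX and 14 of 40 for FOX names. The 54.1% of HOX names lay within this range, and so did the 36.4% of the middle and the 25.0% of the anterior names. The 92.9% of the posterior names lay above all 9, but this sets a part of a family against whole families, which were not split. Families of 6 names give coarse shares, and none of these differences was tested.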

How the data were processed

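The table used here, as deposited by the authors, pairs transcript names with gene names and holds no measured values, so its columns have no unit (other). Of its columns, 0 hold values of a sample, and library depth is unknown. How transcripts were assembled and named is not given in the sources used here. Alevin and Salmon 1.6.0 are named per the submitters' processing notes. The table of multiplexing oligos was not used.

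Fields were split on white space and gene names folded to upper case, and distinct transcripts were counted per name with Python 3.11.15. The counting was tested on simulated data. RefSeq symbols (aPleWal1.hap1), without those of LOC and a number, served for names and neighbours only. HOX symbols were matched for 36 of 37 names. No test was run, because 1 table has no replicates. Members, lists and families were chosen with earlier results of these data known. Names given with values were all HOX names, those absent, and, of each list, the members with extreme numbers. Any further name was picked with its values in view. The values of 1 HOX name and 1 listed gene are counted in totals but not reported singly here. Figures were drawn with matplotlib 3.10.9.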

Additional observations from a re-analysis of the deposited data

How the results depend on the processing

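For 14 results, 69 alternatives were computed. Of these, 57 left a count within a ratio of 1.5 or a share within its 95% Wilson interval, computed with scipy 1.17.1. That interval treats transcripts or names as independent, so it served as a yardstick only. With HQ transcripts alone, the catalogue held 17 HOX names, 50 HOX transcripts and 45.9% of the RefSeq HOX symbols. Posterior groups then made up 10.0%, cluster A 50.0% and cluster C 10.0% of HOX transcripts. With TRINITY transcripts alone there were 64 HOX transcripts, of which 32.8% were posterior. These follow from the source left out. With the fourth group counted as middle, anterior groups held 26.3% and middle groups 50.9% of HOX transcripts, by construction. The share of all gene names with TRINITY transcripts only, 28.1%, became 18.0% among names that match a RefSeq symbol and 27.1% without the third stretch of TRINITY names. Without that stretch, 33 HOX names and 97 HOX transcripts remained listed, and 16 HOX names rested on TRINITY transcripts only. Both of these settings were chosen after seeing the data, and so was leaving out HOXA9, which put 17.8% of HOX transcripts in posterior groups. Folding of case, the wider name pattern and repeated rows changed no value. They could not, since no HOX name had a second spelling, a suffix or a repeated row, and they are counted among the 57. The planned identity of homeodomains within paralogue groups and its 2 alternatives were not run, since no protein sequences were used here. No paired analysis was possible because the table holds no values per library, and for that reason no library could be left out either.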
